A study of Mus musculus with 4 samples.

Results

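The genes described here are 47 genes of the amino acid response and of the endoplasmic reticulum (ER) stress response, out of 24428 genes in the deposited count tables. They were chosen by name, from what the genes are known to do and with earlier results of these data known. Each of the 47 was found in the tables. They fall into 8 roles: transcription factors, stress effectors, amino acid synthesis, amino acid transport, tRNA ligases, eIF2alpha kinases, eIF2alpha phosphatase subunits and an ER branch of chaperones with the XBP1 and ATF6 pathways. The question put to the data was how ATF4 targets (the 24 genes for amino acid synthesis, amino acid transport and tRNA ligases) compared with the 7 genes of the ER branch when Smarca4, the ATPase of the BAF chromatin remodelling complex, was mutated.

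The study compared mouse embryonic stem cells of strain 129SvEv that carried G784E Smarca4-V5 with cells that carried wild-type Smarca4-V5 (WT). In both groups the other Smarca4 allele was wild-type and fused to GFP, so that G784E cells were heterozygous and both groups carried both tags. Cells were grown in DMEM with 15% serum and LIF, were at passage 15 to 20 and were not treated with any agent. RNA was captured with poly(dT), and there were 2 libraries for G784E and 2 for WT. The labels say neither that the 2 libraries of a group came from separate cultures nor how many clones they stand for, so p-values cover how far these libraries vary, possibly for technical reasons alone.

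ATF4 is a transcription factor whose protein level rises when the translation factor eIF2alpha is phosphorylated, through upstream reading frames in its mRNA that are bypassed when initiation is slow. A family of kinases, among them PERK at the ER and GCN2 in amino acid shortage, write this phosphate, and ATF4 then raises transcription of genes for making, importing and charging amino acids. ER stress also acts through IRE1, which splices the Xbp1 mRNA, and through ATF6, which is cut and moves to the nucleus. These arms raise ER chaperones such as BiP. Embryonic stem cells are known for a high demand for amino acids and one-carbon units. Gene counts see neither ATF4 protein, nor the phosphate on eIF2alpha, nor the splicing of Xbp1.

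The arms are known to be read from different promoter elements, and some of the members hold these in their own promoters. The elements searched were the C/EBP-ATF response element, to which ATF4 binds with a C/EBP partner (TGATGNAA), and the ER stress response element, known from ATF6 and NF-Y binding (CCAAT and CCACG with 9 bases of any kind between them), each on both strands, in windows of 250 bases before and 50 bases after an annotated start site. RefSeq windows of build GRCm38.p6 were matched by symbol for 37 of the 47 members (41 windows). The C/EBP-ATF element stood in windows of 11 of these 37 members and in 3.97% of all 32851 windows. The 11 were Asns, Aars, Gars, Pycr1, Slc1a4 and Slc7a11 of the ATF4 targets, Atf3, Chac1, Nupr1 and Trib3 of the regulators and effectors, and Herpud1 of the ER branch. The ER stress element stood in windows of Hspa5 and Hsp90b1, 2 of the 6 matched ER branch genes and 0 of the 16 matched ATF4 targets, and in 0.119% of all windows. Members were counted by gene, with a match in any window of the gene. The shares over all windows count single windows, so the 2 are not like for like. The 2 elements share no letters in any stretch shown. A match is a description of the letters and not a measured binding site. These stretches are shown because they carry the elements known for each arm. They do not separate the arms: 10 of the 16 matched ATF4 targets held neither element, and Herpud1 of the ER branch held the C/EBP-ATF element. Each is on the gene's own strand, 5′ to 3′, and ends before the start site, with the element in capitals and 12 bases on either side. On the opposite strand the C/EBP-ATF element reads TTNCATCA. The first 4 lines are ATF4 targets, the next 3 regulators and effectors, and the last 4 the ER branch.
Asns, chr6:7693213-7693244, minus strand: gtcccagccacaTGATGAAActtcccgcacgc
Gars, chr6:55037959-55037990, plus strand: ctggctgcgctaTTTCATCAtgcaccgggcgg
Pycr1, chr11:120643832-120643863, minus strand: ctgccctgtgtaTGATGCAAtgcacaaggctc
Slc7a11, chr3:50443641-50443691, minus strand: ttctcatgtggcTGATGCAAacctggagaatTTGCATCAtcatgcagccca
Chac1, chr2:119351037-119351068, plus strand: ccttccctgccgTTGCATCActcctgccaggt
Atf3, chr1:191183424-191183455, minus strand: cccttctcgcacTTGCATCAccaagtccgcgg
Nupr1, chr7:126625561-126625592, minus strand: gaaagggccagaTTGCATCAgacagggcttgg
Herpud1, chr8:94386305-94386336, plus strand: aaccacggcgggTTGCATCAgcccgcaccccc
Hspa5, chr2:34772013-34772055, plus strand: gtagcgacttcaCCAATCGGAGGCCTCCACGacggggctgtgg
Hsp90b1, distal site, chr10:86705626-86705668, minus strand: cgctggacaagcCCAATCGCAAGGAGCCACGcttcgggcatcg
Hsp90b1, proximal site, chr10:86705521-86705563, minus strand: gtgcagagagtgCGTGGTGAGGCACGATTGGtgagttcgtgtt

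Gene counts per library were 6226145 and 8895433 in G784E and 7027108 and 10083442 in WT, so that 1 count stood for 0.118 to 0.164 CPM in G784E and 0.102 to 0.132 CPM in WT (CPM, the count of a gene relative to the library's total after edgeR's TMM scaling). Smarca4 itself, whose alleles the counts cannot tell apart, stood at 3868 and 3580 CPM in G784E and at 2423 and 2553 CPM in WT (edgeR, adjusted p = 0.12). The summed level of 10 pluripotency genes was 3365 and 3390 CPM in G784E and 2739 and 3111 CPM in WT with none of the 10 called. All 10 had log2 fold changes above 0, with a median of 0.21. In 6 of the 10 both G784E libraries lay above both WT libraries, beside 19.4% of all tested genes. Of 14 primitive and visceral endoderm markers, 13 were tested and all 13 fell. Their sum was 787 and 792 CPM in G784E against 6529 and 6867 CPM in WT, and 1 marker, Amn, was at 0 in G784E replicate 2, which allows up to 0.353 CPM. Feeder fibroblast markers summed to 185 and 188 CPM in G784E and to 200.3 and 169 CPM in WT, with none called. Of 8 trophectoderm markers, 3 fell (Eomes, Krt8 and Krt18), and their sum over all 8 was 61.5 and 54.8 CPM in G784E against 99.96 and 106 CPM in WT. Endoderm is a secretory cell type. The part of the endoderm and trophectoderm differences in each result below was not tested. In such bulk samples, fewer cells of a type and less RNA per cell cannot be told apart.

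Of the 47 members, 46 passed the filter on low counts and were tested; Cebpb, which encodes a C/EBP partner of ATF4, had 15 and 4 counts in G784E and 8 and 4 in WT and was not. In edgeR's quasi-likelihood test with Benjamini-Hochberg adjustment over all tested genes at a threshold of 0.05, 2 of the 46 rose in G784E (4.35%), beside 0.672% of all 15763 tested genes, and none fell, beside 1.89% of all tested genes (2.56% in either direction). The 2 were Atf4 and Aldh18a1. DESeq2 and limma-voom each called 5 members higher and 0 lower, adding Shmt2, Slc7a5 and Aars. DESeq2 called 0.685% of all genes higher and 1.65% lower, and limma-voom 1.18% higher and 2.31% lower. Upper-quartile scaling in edgeR added Psat1 to these 5, with 0.939% of all genes higher and 1.85% lower. The number of members called changed when a library was left out, as did the number over all genes. Such fits have 1 residual degree of freedom, and what moved the counts was not tested. With a library left out, the log2 fold change of Atf4 ran from 0.91 to 1.07 and that of Aldh18a1 from 0.78 to 0.93. At an unadjusted p under 0.05, 12 members were higher (26.1%, beside 5.14% of all tested genes) and 2 lower (Atf3 and Cth; 6.48% of all tested genes were lower). Both G784E libraries lay above both WT libraries in 22 of the 46 (47.8%) and below in 5 (10.9%). Each share was 19.4% among all tested genes.

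**Figure D1:**
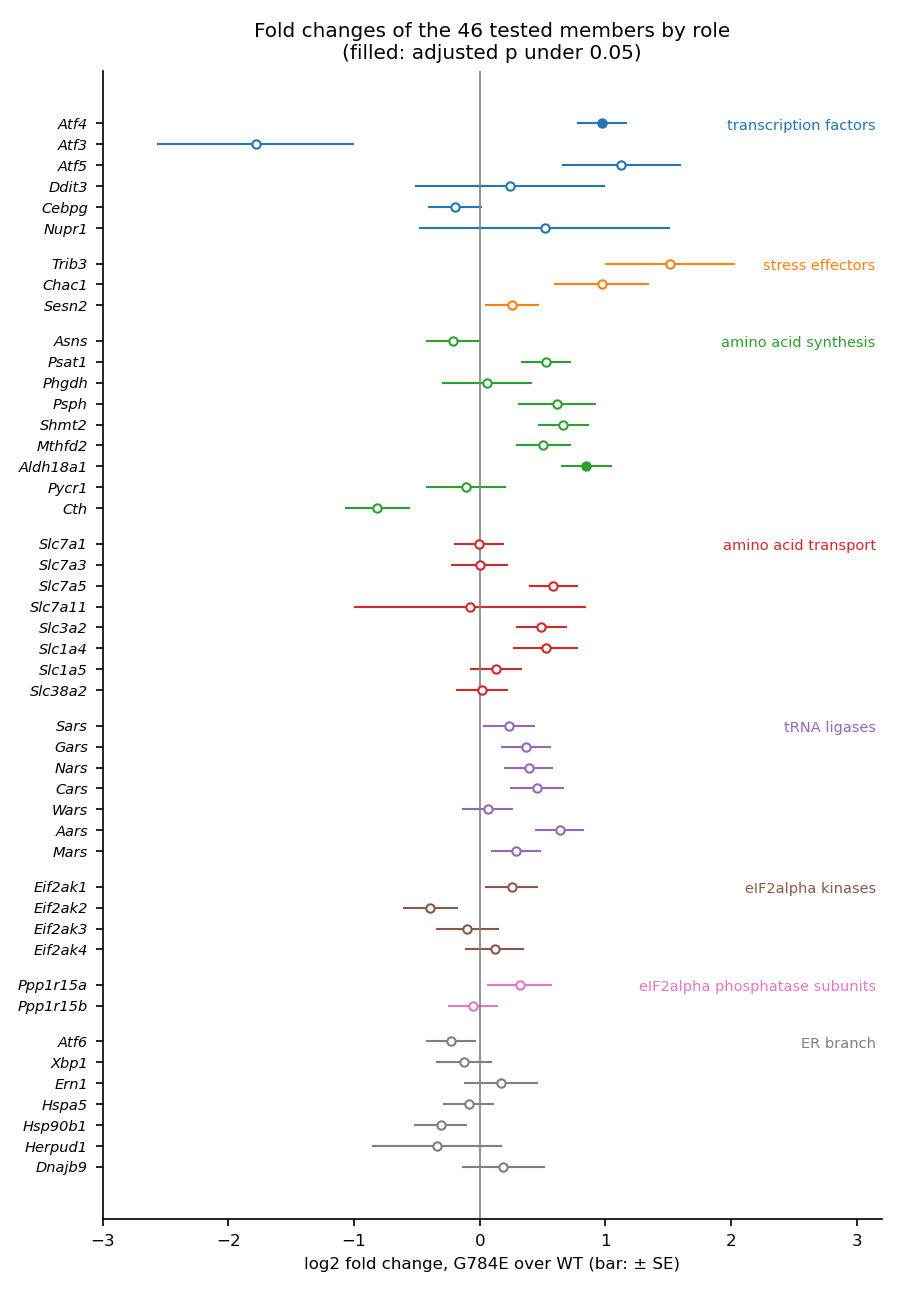
Log2 fold change of G784E over WT (horizontal axis) with its standard error for the 46 tested members, grouped and coloured by role, with filled points past an adjusted p of 0.05. Atf4 (0.97) and Aldh18a1 (0.85) are the filled points, the 7 tRNA ligases lie above 0, and the 7 ER branch genes lie between -0.34 and 0.19.

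Atf4 mRNA was about 2-fold higher in G784E. It stood at 224 and 252 CPM in G784E, against 118 and 124 CPM in WT. Both G784E libraries lay above both WT libraries, and the spread within each group was small beside the gap (238 ± 19.25 against 121 ± 4.56 CPM; SD, n = 2 each). The log2 fold change was 0.97 (SE 0.20; edgeR, adjusted p = 0.0054), 1.97-fold. Between libraries of the same number it was 0.93 for replicate 1 and 1.02 for replicate 2. Without WT replicate 1 the call was lost (0.94, edgeR, adjusted p = 0.0825). Over all 12 alternatives the adjusted p ran from 9.2e-07 to 0.0825.

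The 250 bases before the start site of Atf4 are shown since it is the regulator that rose. They hold neither of the 2 elements, as is also the case for Aldh18a1, which says nothing of the factors that act there.
Atf4, chr15:80254934-80255183, plus strand: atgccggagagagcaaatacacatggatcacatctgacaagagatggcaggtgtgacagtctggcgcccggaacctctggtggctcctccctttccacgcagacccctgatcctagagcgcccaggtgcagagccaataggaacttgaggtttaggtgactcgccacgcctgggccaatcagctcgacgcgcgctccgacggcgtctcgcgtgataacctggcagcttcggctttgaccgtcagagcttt

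The other transcription factors did not pass the test, and they did not share a direction. Atf5, a relative of ATF4 that it is known to induce, stood at 12.9 and 6.48 CPM in G784E and at 3.17 and 5.58 CPM in WT (log2 fold change 1.13 with an SE of 0.47; edgeR, adjusted p = 0.312). Its groups did not overlap, but its ratio was 2.03 (log2) between the libraries numbered 1 and 0.21 between those numbered 2. Atf3, a repressor of the same family and a known ATF4 target, had the opposite sign, with both G784E libraries below both WT libraries. It stood at 1.96 and 1.06 CPM in G784E, which were 12 and 9 counts, against 5.28 and 5.08 CPM in WT, which were 40 and 50 counts (log2 fold change -1.78, SE 0.78; edgeR, adjusted p = 0.345). Ddit3, which encodes the pro-death factor CHOP, was at 4.75 and 2.59 CPM in G784E and at 3.43 and 2.74 CPM in WT, with overlapping groups (0.24, SE 0.76; edgeR, adjusted p = 0.998). With 22 to 29 counts per library, a change of Ddit3 well above its SE could have been missed at this depth. The sign of its log2 fold change turned without G784E replicate 1 (-0.23). Cebpg, the stably expressed C/EBP partner of ATF4, had a log2 fold change of -0.20 (SE 0.21), and Nupr1, a small chromatin-binding stress protein, of 0.52 (SE 1.00).

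The 3 stress effectors lay higher in G784E without passing the test. Trib3, a pseudokinase that feeds back on ATF4 and CHOP, stood at 12.1 and 6.01 CPM in G784E and at 3.57 and 2.74 CPM in WT. Its log2 fold change was 1.52 (SE 0.52; edgeR, adjusted p = 0.162), the highest log2 fold change among the members, and it passed without G784E replicate 2 (1.96, edgeR, adjusted p = 0.028). Chac1, which degrades glutathione, was at 9.82 and 13.3 CPM in G784E and 5.41 and 6.40 CPM in WT (0.97, SE 0.38; edgeR, adjusted p = 0.257). Sesn2, a leucine-binding inhibitor of mTORC1, was at 84.3 and 86.7 CPM in G784E and at 58.8 and 84.2 CPM in WT (0.26, SE 0.21; edgeR, adjusted p = 0.797). In each of the 3 both G784E libraries lay above both WT libraries, as in 19.4% of all tested genes, though for Sesn2 the gap to WT replicate 2 was 84.3 against 84.2 CPM.

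**Figure D2:**
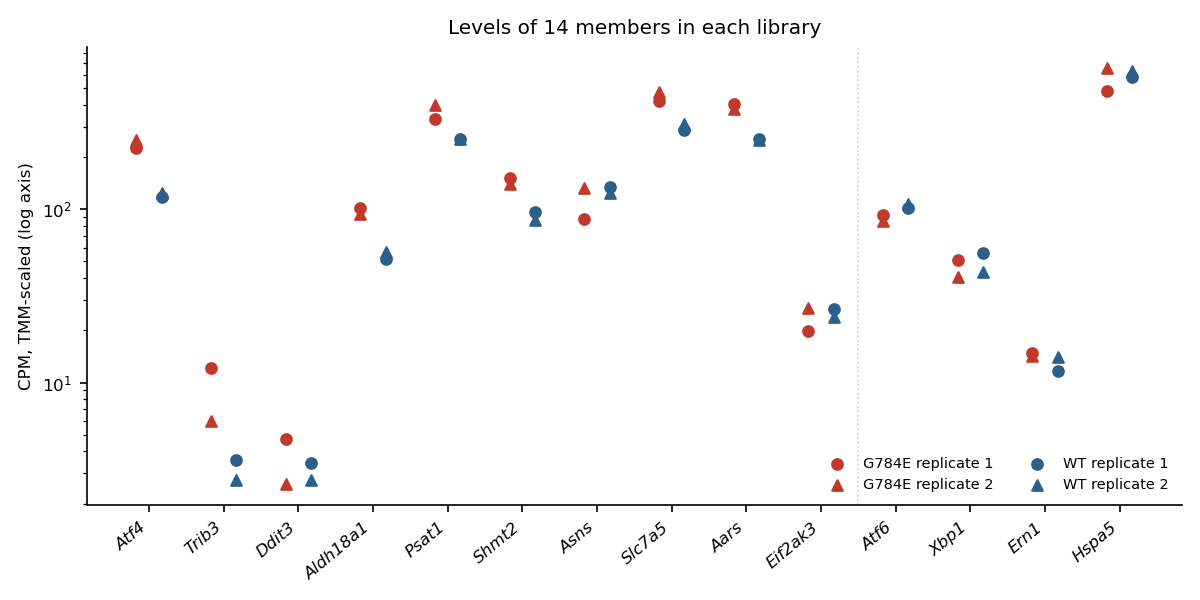
CPM on a log axis for 14 members in each library, G784E (red) left of WT (blue), with circles for replicate 1 and triangles for replicate 2. Atf4, Trib3, Aldh18a1, Psat1, Shmt2, Slc7a5 and Aars have both G784E libraries above both WT libraries, while Ddit3, Asns, Eif2ak3, Xbp1 and Hspa5 overlap.

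Among the 9 amino acid synthesis genes, Aldh18a1 was the 1 that rose. In 5 of the 9 (Aldh18a1, Psat1, Psph, Shmt2 and Mthfd2) both G784E libraries lay above both WT libraries, beside 19.4% of all tested genes. In 1 (Cth) both lay below, again beside 19.4% of all tested genes. Aldh18a1, which makes the proline precursor from glutamate, stood at 102 and 94.2 CPM in G784E and at 51.9 and 57.1 CPM in WT. The groups did not overlap, and the log2 fold change was 0.85 (SE 0.20; edgeR, adjusted p = 0.0202), 1.801-fold. The call was lost without WT replicate 1 (0.78, edgeR, adjusted p = 0.34) and without WT replicate 2 (0.92, adjusted p = 0.113). Pycr1, which completes proline synthesis, did not follow it, at 12.9 and 10.5 CPM in G784E and 10.6 and 14.5 CPM in WT (-0.11, SE 0.32).

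Shmt2 and Psat1 showed smaller differences that passed in some tools. Shmt2, the mitochondrial enzyme that takes a one-carbon unit from serine, was at 151 and 139 CPM in G784E and at 96.5 and 86.3 CPM in WT (0.67, SE 0.20; edgeR, adjusted p = 0.0874). The adjusted p was 0.0307 in DESeq2, 0.0275 in limma-voom and 0.0483 with upper-quartile scaling in edgeR, each past the threshold. In edgeR it was above the threshold with RLE scaling (0.124), no filter (0.266), the stricter filter (0.0592) and without the ribosomal RNA gene Rn45s (0.118). Psat1, the aminotransferase of serine synthesis, was at 331 and 400.5 CPM in G784E and 253.9 and 253.7 CPM in WT (0.53, SE 0.20; edgeR, adjusted p = 0.227). It passed with upper-quartile scaling in edgeR (adjusted p = 0.0499), but not in DESeq2 (0.0872) or limma-voom (0.108). Of the enzymes beside them, Mthfd2 (mitochondrial folate cycle; 0.51, SE 0.22) and Psph (the last step of serine synthesis; 0.62, SE 0.31) also had groups apart, and Phgdh (the first step) stood at 9.0 and 9.90 CPM in G784E and 9.90 and 8.33 CPM in WT.

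Asns and Cth, like Pycr1, had log2 fold changes below 0, against above 0 in the other 6 enzymes. Asns encodes asparagine synthetase, a textbook ATF4 target, and its element is the first of the stretches printed above. It stood at 88.0 and 133 CPM in G784E and at 134 and 123 CPM in WT. The G784E libraries lay far apart and overlapped WT, with a log2 fold change of -0.21 (SE 0.22; edgeR, adjusted p = 0.868) that was 0.07 without G784E replicate 1. Cth, which makes cysteine by transsulfuration, was at 17.3 and 15.0 CPM in G784E and at 32.5 and 24.3 CPM in WT (-0.81, SE 0.26; edgeR, adjusted p = 0.12). Its groups did not overlap.

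The 8 amino acid transporters split into those near 0 and those higher in G784E, and none passed edgeR's test. Slc7a5 and Slc3a2 encode the light and heavy chains of the large neutral amino acid carrier LAT1, and both chains differed by similar amounts. Slc7a5 was at 423 and 473 CPM in G784E and at 286 and 310.2 CPM in WT (0.59, SE 0.20; edgeR, adjusted p = 0.147). It passed with adjusted p-values of 0.0275 in DESeq2, 0.0491 in limma-voom and 0.0195 with upper-quartile scaling in edgeR. It did not pass in edgeR with RLE scaling (0.209), no filter (0.520), the stricter filter (0.0884) or without Rn45s (0.173). Slc3a2 was at 242 and 276 CPM in G784E and at 167 and 201 CPM in WT (0.49, SE 0.20; edgeR, adjusted p = 0.293). Slc1a4, a carrier of alanine, serine and cysteine, had 0.53 (SE 0.26), and its groups were also apart. Slc38a2, the glutamine carrier SNAT2 and a classical amino acid response gene, was at 891 and 1084 CPM in G784E and at 815 and 1132 CPM in WT (0.02, SE 0.21). Slc1a5, the glutamine carrier ASCT2, had 0.13 (SE 0.21). The cationic carriers Slc7a1 and Slc7a3 had log2 fold changes of 0.00 each (SE 0.20 and 0.23), and Slc7a11, the cystine carrier with a pair of elements in its promoter, was at 1.52 to 3.83 CPM in the 4 libraries.

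The 7 tRNA ligases, which join amino acids to their tRNAs, had log2 fold changes above 0 in each case, from 0.07 for Wars to 0.63 for Aars, with none past edgeR's test. Aars, the alanine ligase, stood at 404 and 378 CPM in G784E and at 253 and 250.4 CPM in WT (0.63, SE 0.20; edgeR, adjusted p = 0.0990). With DESeq2 the adjusted p was 0.00845, with limma-voom 0.0272 and with upper-quartile scaling in edgeR 0.0230, each past the threshold. In edgeR it was above the threshold with RLE scaling (0.144), no filter (0.392), the stricter filter (0.0592) and without Rn45s (0.120). In 6 of the 7, both G784E libraries lay above both WT libraries, beside 19.4% of all tested genes, the exception being Wars, the tryptophan ligase, at 87.2 and 76.8 CPM in G784E and 73.3 and 83.3 CPM in WT. Cars, the cysteine ligase, had 0.46 (SE 0.22) and Sars, the serine ligase, 0.23 (SE 0.21). The ligases for asparagine (Nars), glycine (Gars) and methionine (Mars) lay between these, at 0.39, 0.37 and 0.29.

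The kinases and phosphatase subunits that set eIF2alpha phosphorylation did not pass the test. Eif2ak3, which encodes the ER kinase PERK, was at 20.0 and 27.1 CPM in G784E and at 26.7 and 23.96 CPM in WT, overlapping (-0.10, SE 0.25; edgeR, adjusted p = 0.995). The other kinases had -0.39 (Eif2ak2, the double-stranded RNA sensor PKR; SE 0.22), 0.12 (Eif2ak4, the amino acid sensor GCN2; SE 0.23) and 0.25 (Eif2ak1, the haem-regulated kinase; SE 0.21). Ppp1r15a, the stress-induced phosphatase subunit GADD34, stood at 22.6 and 23.1 CPM in G784E and at 16.1 and 20.4 CPM in WT (0.32, SE 0.26), and its constitutive relative Ppp1r15b had -0.06 (SE 0.20).

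With group as the one term, none of the 7 ER branch genes passed the test in edgeR, DESeq2 or limma-voom, and none had an unadjusted p under 0.05 in edgeR. Hspa5, the ER chaperone BiP, was at 484 and 656 CPM in G784E and at 577 and 633 CPM in WT. Its groups overlapped, and its log2 fold change of -0.09 (SE 0.20; edgeR, adjusted p = 0.994) was 0.13 without G784E replicate 1. Hsp90b1, the ER chaperone GRP94, was at 1381 and 2107 CPM in G784E and at 2011 and 2311 CPM in WT (-0.31, SE 0.21; edgeR, adjusted p = 0.693). Hsp90b1 was called lower with the replicate number as a block, although nothing says that these numbers mark a shared culture or day. In both chaperones G784E replicate 1 was the lowest library. Xbp1, whose spliced mRNA encodes the factor of the IRE1 arm, was at 50.7 and 40.5 CPM in G784E and at 55.9 and 43.6 CPM in WT (-0.12, SE 0.22; edgeR, adjusted p = 0.975). Ern1, which encodes IRE1 itself, was at 14.9 and 14.14 CPM in G784E and 11.6 and 14.11 CPM in WT (0.17, SE 0.30; edgeR, adjusted p = 0.974). Atf6 was at 93.3 and 86.1 CPM in G784E and at 102 and 108 CPM in WT, apart but close (-0.23, SE 0.20; edgeR, adjusted p = 0.814). The remaining members, Herpud1 of ER-associated degradation and Dnajb9, a BiP co-chaperone and XBP1 target, had -0.34 (SE 0.52) and 0.19 (SE 0.33).

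Side by side, the ATF4 targets lay higher in G784E on the median and the ER branch lay close to 0. The median log2 fold change was 0.33 over the 24 ATF4 targets, -0.12 over the 7 ER branch genes and 0.00 over all 15763 tested genes. Within the ATF4 targets it was 0.51 for amino acid synthesis, 0.07 for amino acid transport and 0.37 for tRNA ligases. Without G784E replicate 1 the median of the ER branch was -0.018, and without WT replicate 1 it was -0.031. Of the ATF4 targets, 19 had a log2 fold change above 0 (79.2%) and 5 below, against 2 above and 5 below in the ER branch and 49.9% above among all tested genes. Both G784E libraries lay above both WT libraries in 15 of the 24 ATF4 targets (62.5%) and in 1 of the 7 ER branch genes, where 19.4% of all tested genes did so. Both lay below in 1 of each arm, where again 19.4% of all tested genes did so. Between libraries of the same number the median was 0.34 and 0.25 for the ATF4 targets and -0.14 and -0.10 for the ER branch. The mean log2 CPM of the ATF4 targets minus that of the ER branch, a ratio within each library that scaling between libraries does not touch, was 0.54 and 0.47 in G784E and 0.09 and 0.18 in WT. Its mean was 0.50 ± 0.05 in G784E and 0.13 ± 0.06 in WT (SD, n = 2 each), a difference of 0.37 that ran from 0.33 to 0.41 with 1 library left out. Since these genes were chosen as a set, no p-value is given for the difference between the arms. The smallest two-sided exact permutation p for 2 against 2 libraries would be 0.333.

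**Figure D3:**
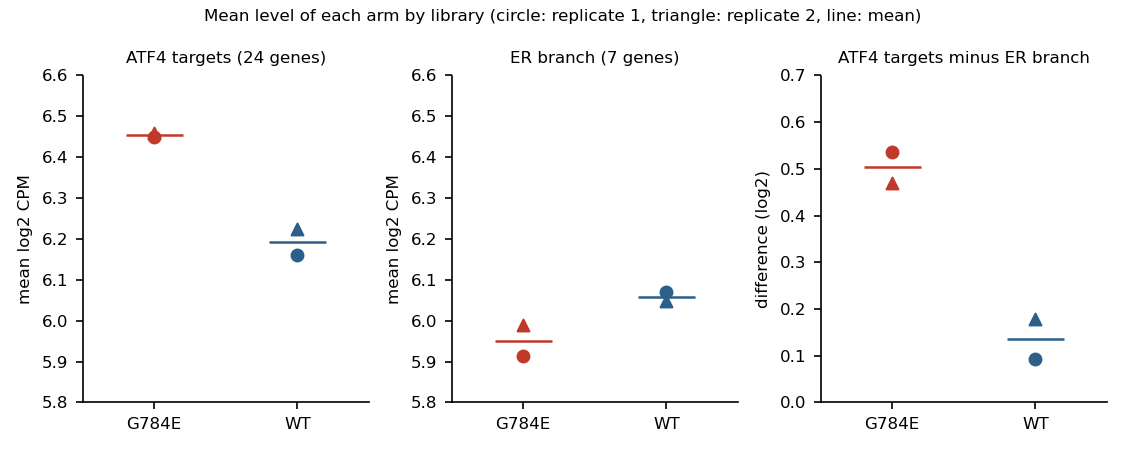
Mean log2 CPM per library of the 24 ATF4 targets (left), of the 7 ER branch genes (middle) and the difference between both (right), G784E left of WT, with a line at each group's mean. The ATF4 targets lie at 6.45 and 6.46 in G784E against 6.16 and 6.22 in WT, the ER branch at 5.91 and 5.99 against 6.07 and 6.05, and the difference at 0.54 and 0.47 against 0.09 and 0.18.

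Further genes of the same pathways, in 7 lists with 106 of 108 genes tested, gave 1 gene that rose and 1 that fell. Each is 0.943% of the 106, beside 0.672% of all tested genes higher and 1.89% lower, so that the share called was near the background. In G784E Slc43a1, a carrier of large neutral amino acids listed among the other ATF4 targets, rose 2.33-fold, at 20.9 and 22.0 CPM against 10.04 and 8.43 CPM in WT (log2 fold change 1.22, SE 0.29; edgeR, adjusted p = 0.0175). It did not pass in DESeq2 (adjusted p = 0.0546), nor without WT replicate 1 (adjusted p = 0.101 in edgeR) or WT replicate 2 (adjusted p = 0.265). Of the 17 tested genes in that list it was the 1 called, and the list's median was 0.17. Between libraries of the same number that median was -0.11 for replicate 1 and 0.11 for replicate 2. Both G784E libraries lay above both WT libraries in 3 of the 17 (17.6%) and below in 4 (23.5%). Among all tested genes each share was 19.4%. Creb3l2, an ER-anchored transcription factor that is cut and released like ATF6 and is known for its part in secretion of matrix proteins, fell 3.02-fold, to 14.9 and 10.9 CPM in G784E against 35.9 and 41.7 CPM in WT (-1.60, SE 0.26; edgeR, adjusted p = 0.00041). It kept its call in all 12 alternatives, and the endoderm markers, as summed above, fell in the same libraries.

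The lists in which nothing was called had medians from -0.08 to 0.31. The 13 other cytosolic tRNA ligases had a median of 0.13, with 9 above 0, beside 0.37 for the 7 ligases among the members. Their C/EBP-ATF element was found in Iars, Tars and Yars, 3 of 9 matched genes. The 17 mitochondrial tRNA ligases had a median of 0.07, and the 8 genes for eIF2 and eIF2B subunits, which carry the initiator tRNA and reload eIF2 with GTP, a median of 0.31 with 7 above 0. The median of these 8 genes was near the 0.33 of the 24 ATF4 targets. In 3 of the 8 both G784E libraries lay above both WT libraries, beside 19.4% of all tested genes. On the ER side, 19 other chaperones and foldases had a median of -0.06 and 22 genes of ER-associated degradation and translocation -0.08, so that 14 of these 41 lay above 0. At an unadjusted p under 0.05, 2 of the 41 were higher and 4 lower in edgeR, beside 5.14% and 6.48% of all tested genes.

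**Figure D4:**
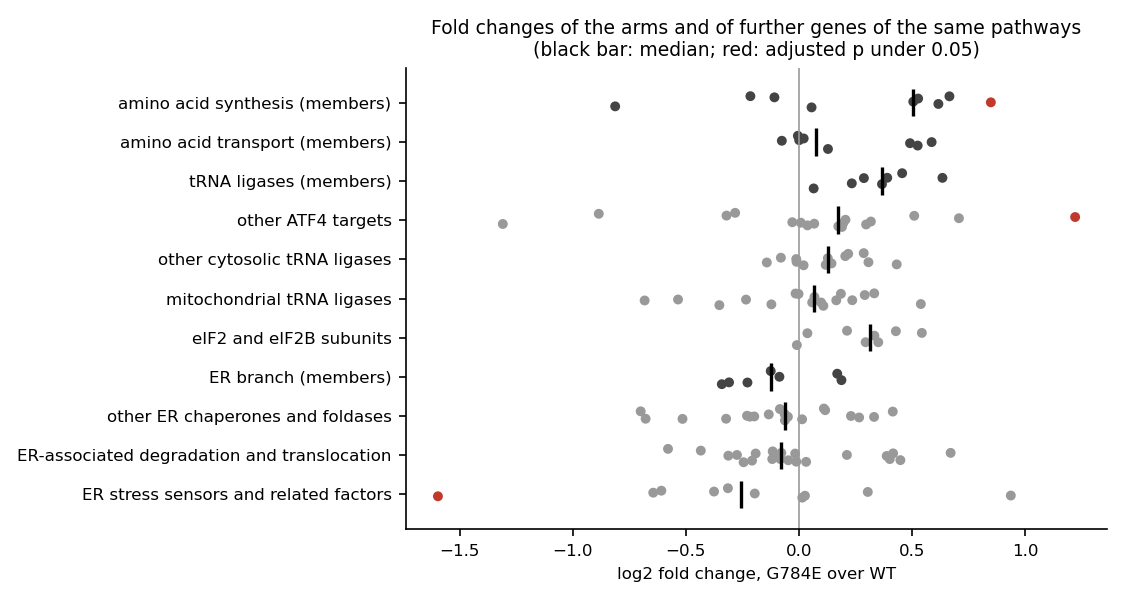
Log2 fold changes of G784E over WT for the tested members of the 3 groups of ATF4 targets, the ER branch (dark grey) and the 7 further lists (light grey), with the median of each as a black bar and genes past an adjusted p of 0.05 in red. The red points are Aldh18a1 (0.85), Slc43a1 (1.22) and Creb3l2 (-1.60), and the medians run from 0.51 for amino acid synthesis to -0.25 for ER stress sensors.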

How the data were processed

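Each library came with a table of raw counts per gene as deposited by the authors. The submitters' processing notes name the tools Bowtie2 2.1.0, CASAVA 1.8.2, DESeq2 and HTSeq, and the build mm9. The labels list the molecule as genomic DNA, while their protocol describes poly(dT)-captured mRNA. No source used here gives the annotation, the order of steps or whether counting used strand, so a gene's reads may include those of an overlapping or antisense neighbour. Summary rows (reads in no gene, ambiguous or not unique) held 83.3% to 88.7% of each table's total and were left out, so near-identical genes may be undercounted.

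Groups and replicate numbers came from the labels. The main test was edgeR 4.0.16's quasi-likelihood test in R 4.3.3, with TMM scaling, filterByExpr (minimum count 10, minimum total 15; 15763 genes tested), group as the one term, 2 residual degrees of freedom and Benjamini-Hochberg adjustment at 0.05, two-sided. SE is the log2 fold change divided by the square root of F. Log2 CPM used a prior count of 2, and within-number medians CPM plus 0.5. Floors (3 counts) cover counting error only. Replicates differed beyond sampling noise (chi-square over genes divided by its degrees of freedom, 15.4 in G784E and 9.22 in WT). DESeq2 1.42.0, limma-voom (limma 3.58.1), other scalings and filters, a replicate block, a test without the ribosomal RNA gene Rn45s and each library left out (1 residual degree of freedom, the lone library assumed to vary like the other group) were alternatives. CPM depends on gene length and is not compared between genes.

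The members and lists were chosen with earlier results of these data known. Values in each library are given for members past the threshold in edgeR, DESeq2, limma-voom or another scaling and for Atf4, Ddit3, Asns, Eif2ak3, Hspa5, Xbp1, Atf6, Ern1 and Trib3, with the 2 largest changes of each role named. Other members given in full were chosen after their values were seen. Promoter sequences are RefSeq's, of GRCm38.p6, a build other than that of the counts. The stretch of Aars is not reported here.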

Additional observations from a re-analysis of the deposited data

How the results depend on the processing

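The 12 alternatives changed how many members passed more than they changed the fold changes. With RLE scaling, no filter, the stricter filter or without Rn45s, edgeR called 2 members higher, as in the main test. The members called higher, 2 in edgeR, were 6 with upper-quartile scaling, 5 in DESeq2, 5 in limma-voom and 0 to 6 with a library left out. The 0 came without WT replicate 1 and the 6 without G784E replicate 2. Members called lower, 0 in edgeR, were 0 to 1 with a library left out (Cth, without G784E replicate 1). Over all genes, 298 lower and 106 higher became 156 to 532 lower and 29 to 307 higher with a library left out, and limma-voom called 186 higher. In the wider lists, 1 gene lower became 2 with upper-quartile scaling, 2 in limma-voom and 1 to 6 with a library left out, and 1 gene higher became 0 in DESeq2, 2 in limma-voom and 0 to 3 with a library left out. The median of the ATF4 targets, 0.33, was 0.291 with no filter and 0.295 without Rn45s, and ran from 0.31 to 0.41 with a library left out. That of the ER branch, -0.12, was -0.17 with no filter, -0.16 without Rn45s and -0.19 to -0.018 with a library left out. The difference between the arms per library, 0.37, stayed at 0.37 with no filter, the stricter filter or a prior count of 0.5. It ran from 0.33 to 0.41 with a library left out. Leaving 1 of 2 libraries out cannot move this difference by more than its replicate spread, so that range is not a check on it. Apart from the values given, the cause of these moves was not tested.

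The replicate numbers are in the labels, but nothing says that they mark a shared culture or day. Differences between replicates 1 and 2 correlated at 0.487 over genes between the groups. With the replicate number as a block, 10 members were called higher and 2 lower (Cth and Hsp90b1), 4 genes of the wider lists were lower and 6 higher, and over all genes 658 were lower and 546 higher. With 2 libraries per group and 6226145 to 10083442 gene counts, members below about 5 CPM, such as Ddit3, Nupr1 and Slc7a11, had SEs of 0.76 to 1.00 and large changes in them could have been missed.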

Other observations

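Some genes of the wider lists that did not pass the test are given here, chosen after their values were seen. Dnajc3, an ER co-chaperone that inhibits PERK, stood at 61.2 and 69.5 CPM in G784E and at 99.0 and 110.3 CPM in WT (log2 fold change -0.68, SE 0.20; edgeR, adjusted p = 0.0873). Pdia6, a disulfide isomerase, was at 63.3 and 65.5 CPM in G784E and at 92.6 and 91.6 CPM in WT (-0.52, SE 0.20; edgeR, adjusted p = 0.252). Manf, a secreted ER stress protein, had -0.70 (SE 0.27; edgeR, adjusted p = 0.231). In the other direction, the chaperone gene Calr was at 473 and 412 CPM in G784E and at 323 and 340 CPM in WT (0.42, SE 0.20; edgeR, adjusted p = 0.415). The log2 fold changes of these ER genes thus differed in sign, with none past the test.

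Among the amino acid genes, Bcat1, the cytosolic aminotransferase of branched-chain amino acids, was at 60.1 and 71.7 CPM in G784E and at 29.6 and 50.9 CPM in WT (0.71, SE 0.24; edgeR, adjusted p = 0.156). Xpot, the exporter of tRNAs from the nucleus, was at 204 and 240 CPM in G784E and at 141 and 170.5 CPM in WT (0.51, SE 0.20; edgeR, adjusted p = 0.268). Iars, the isoleucine ligase, was at 455 and 548 CPM in G784E and at 340 and 404 CPM in WT (0.43, SE 0.20; edgeR, adjusted p = 0.4). In each of these 3 genes both G784E libraries lay above both WT libraries, as in 19.4% of all tested genes. Vegfa, another gene known to respond to ATF4, had the opposite sign (-0.89, SE 0.28; edgeR, adjusted p = 0.123).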
